A study of Glycine max with 16 samples.

Results

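Transcripts of 6 genes that lead to anthocyanins and proanthocyanidins (CHS1, F3H, DFR1, ANS2, LAR1 and UGT78K1) were followed in maturing soybean seeds. The genes were taken by name, with every probe set (a group of short probes for 1 transcript) that the array annotation pairs with exactly 1 of them. They are 6 of 6031 genes paired in this way and hold 13 of the 37593 soybean probe sets, with 7 for CHS1, 2 for F3H and 1 for each of the others. RNA came from whole seeds (seed coat plus embryo) of the cultivar MG/BR 46 (Conquista) and was measured on Affymetrix Soybean Genome arrays. Seeds were harvested at the stages R6, R7 and R8, which run from green filled seeds to mature dry seeds, and were sorted by colour after harvest to make each sample more even in maturity. Non-stressed plants were kept in a polytunnel with free water. Stressed plants were moved at R5.5 to a greenhouse with a mean day temperature of 39.5 °C and were given water only on wilting, so heat and drought were applied together and cannot be told apart. Each group had 3 arrays, except non-stressed R7 and non-stressed R8 seeds, with 2 arrays each, which gives 16 arrays in all, and the labels call the samples of a group biological replicates of at least 50 seeds.

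Flavonoids are made from phenylalanine by way of a chalcone, the product of chalcone synthase. One route leads through flavanones, dihydroflavonols and leucoanthocyanidins to the anthocyanin pigments and to the proanthocyanidins, the condensed tannins, and another leads to the isoflavonoids and pterocarpans for which legumes are known. In soybean seeds anthocyanins and proanthocyanidins are best known from the seed coat, while isoflavones collect mainly in the embryo.

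Values are log2 signals, on which a difference of 1 is a 2-fold change. Levels are compared between groups for 1 probe set, or for a sum of marker signals, and are not ranked between genes. Probe sets for other organisms on the same arrays gave a background with an upper level of 1.02. Where a group lay at or below that level, a fold was taken from it and is a lower bound. On every array 14068 to 15403 soybean probe sets had a signal above 3. A gene was tested when its mean signal exceeded 3 in at least 1 group, and called when limma's adjusted p over 19194 probe sets was 0.05 or less with at least a 2-fold change. Calls used the log2 values as they stand, also below the background. A called change that reaches into the background can therefore have a lower bound under 2-fold. All 6 genes passed this filter, but DFR1, LAR1 and UGT78K1 passed it through non-stressed R6 seeds alone, CHS1 through stressed R6 and non-stressed R7 seeds, and LAR1 with a mean of only 3.06. A fall of such a gene from its highest group is therefore partly fixed by the filter. So is a difference between stages in its stress response that includes that group. The counts of falling genes and of such differences are a description. In whole seeds, fewer cells of a type and less RNA per cell cannot be told apart.

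F3H, flavanone 3-hydroxylase, makes the dihydroflavonols from which the branch starts. In R6 seeds its signals were 7.83, 7.95 and 7.78 without stress and 5.87, 5.98 and 6.65 under stress. In R7 seeds they were 1.74 and 2.29 without stress and 4.21, 3.95 and 3.60 under stress. The R6 groups were highest and did not overlap, and at R7 the order turned round, with every stressed array above both non-stressed arrays. In R8 seeds the signals were 0.70 and 0.82 without stress and 0.62, 0.62 and 0.91 under stress, all within the background. From high to low the order was therefore non-stressed R6, stressed R6, stressed R7 and non-stressed R7, each apart from the next, with the R8 groups overlapping at the bottom. The second F3H probe set gave 6.12, 6.45 and 6.13 against 4.07, 3.98 and 4.81 under stress at R6, and 0.87 and 0.79 against 2.08, 1.85 and 1.85 under stress at R7. The non-stressed R7 values of this second probe set were within the background. Both probe sets thus put the stressed group lower at R6 and higher at R7.

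DFR1, dihydroflavonol 4-reductase, turns dihydroflavonols into leucoanthocyanidins, the shared precursors of anthocyanins and proanthocyanidins. Its signals in R6 seeds were 4.81, 4.40 and 4.50 without stress and 1.71, 1.55 and 1.70 under stress. The stressed R6 arrays lay close together, well under the non-stressed ones and above the background. At R7 the signals were 0.24 and 1.11 without stress and 0.54, 1.14 and 0.41 under stress, so that 1 array of each group reached just over the background. At R8 they were 0.74 and 0.58 without stress and 0.38, 0.12 and 0.46 under stress, all below it. DFR1 was thus seen in R6 seeds, highest without stress, and its other 4 group means lay within the background.

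ANS2, anthocyanidin synthase, oxidises leucoanthocyanidins to the coloured anthocyanidins. In R6 seeds it gave 5.16, 5.65 and 5.27 without stress and 3.53, 3.38 and 4.78 under stress. The R6 groups were apart, although stressed replicate 3 lay over 1 unit above the other stressed arrays. In R7 seeds ANS2 gave 0.49 and 0.94 without stress, both within the background, and 2.75, 2.61 and 2.36 under stress. At R8 it gave 0.75 and 0.58 without stress and 0.25, 0.94 and 0.73 under stress. The order of its 4 highest groups was the same as that of F3H, and non-stressed R7 seeds overlapped with both R8 groups.

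LAR1, leucoanthocyanidin reductase, draws leucoanthocyanidins off to catechin, a unit of the proanthocyanidins. Its signals were 2.72, 3.22 and 3.24 in non-stressed R6 seeds and 0.46, 0.12 and 0.16 in stressed R6 seeds. LAR1 was above the background in non-stressed R6 seeds alone, and its 13 values in the other 5 groups lay between 0.12 and 0.48.

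UGT78K1 encodes an anthocyanidin 3-O-glucosyltransferase, which adds the sugar that makes the pigment stable. It gave 3.73, 3.85 and 3.80 in non-stressed R6 seeds and 2.43, 2.83 and 2.92 in stressed R6 seeds. These groups did not overlap, and stressed R6 seeds kept a signal clearly over the background. Its values from R7 on were between 0.10 and 0.57 in every group, with no order above the background.

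CHS1, chalcone synthase, takes the first committed step of all flavonoid routes. Its R6 signals were 1.96, 2.33 and 2.64 without stress and 2.30, 2.89 and 4.32 under stress. Its R7 signals were 3.67 and 2.94 without stress and 2.56, 2.05 and 1.75 under stress. The groups overlapped at R6, and at R7 every stressed array was below both non-stressed ones. At R8 CHS1 gave 0.41 and 0.87 without stress and 0.34, 0.64 and 0.71 under stress, all within the background. In order of their means, non-stressed R7, stressed R6, non-stressed R6 and stressed R7 seeds each overlapped with the next, and only the R8 groups stood apart from all others.

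**Figure D1:**
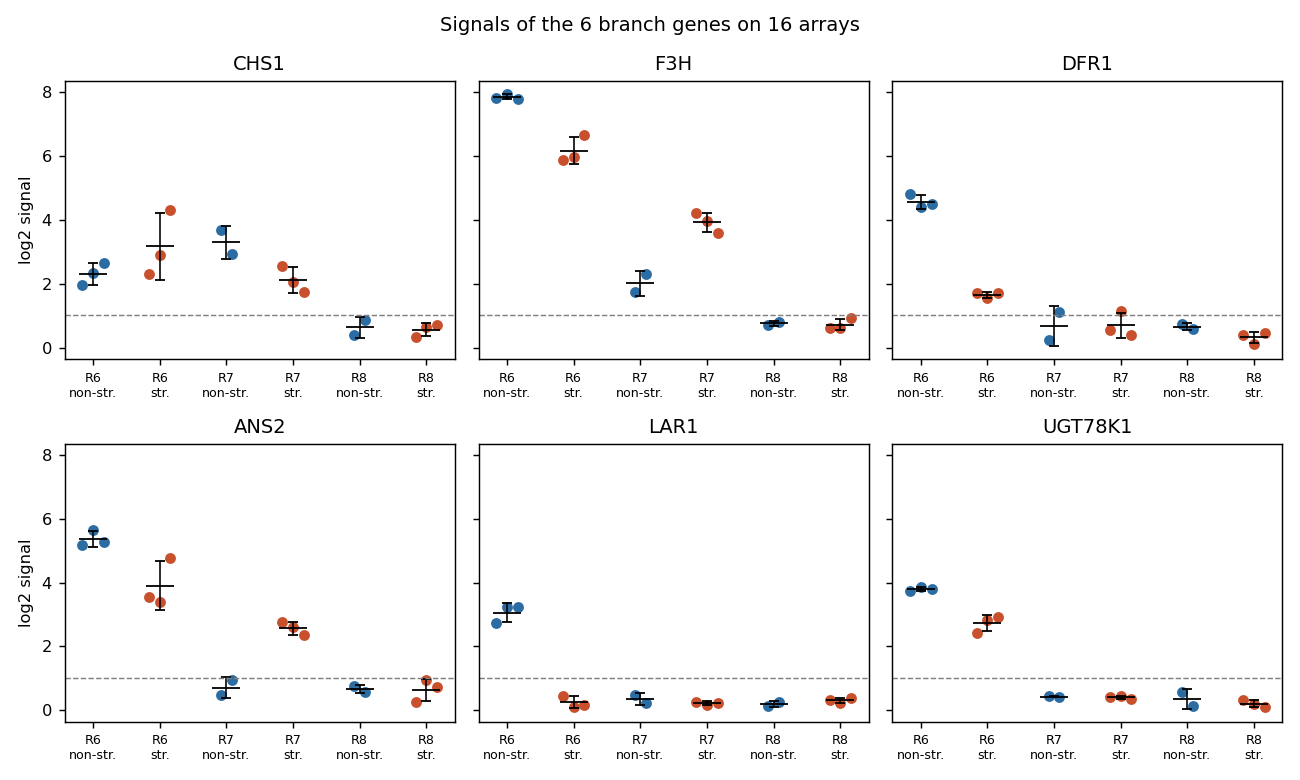
Log2 signal of each gene (y axis) on the 16 arrays, by stage and treatment (x axis; blue, non-stressed; red, stressed; black bars, group mean ± SD, n = 2 or 3; dashed line, upper background level of 1.02). F3H and ANS2 stay above the background in stressed R7 seeds (means 3.92 and 2.57), where DFR1, LAR1 and UGT78K1 do not.

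Of the 7 probe sets paired with CHS1, 2 passed the signal filter, and they share most of their name and pattern. Another, which did not pass, gave 1.49, 1.49 and 4.20 in stressed R6 seeds, so replicate 3 stood high there as it did in the first probe set. The remaining probe sets were near the background on most arrays. Soybean has many chalcone synthase genes with near-identical sequences, so the share of other copies in these signals is uncertain. A close relative, CHS8, had mean signals of 8.39 and 7.84 in non-stressed and stressed R6 seeds and was not called at R6, R7 or R8.

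**Figure D2:**
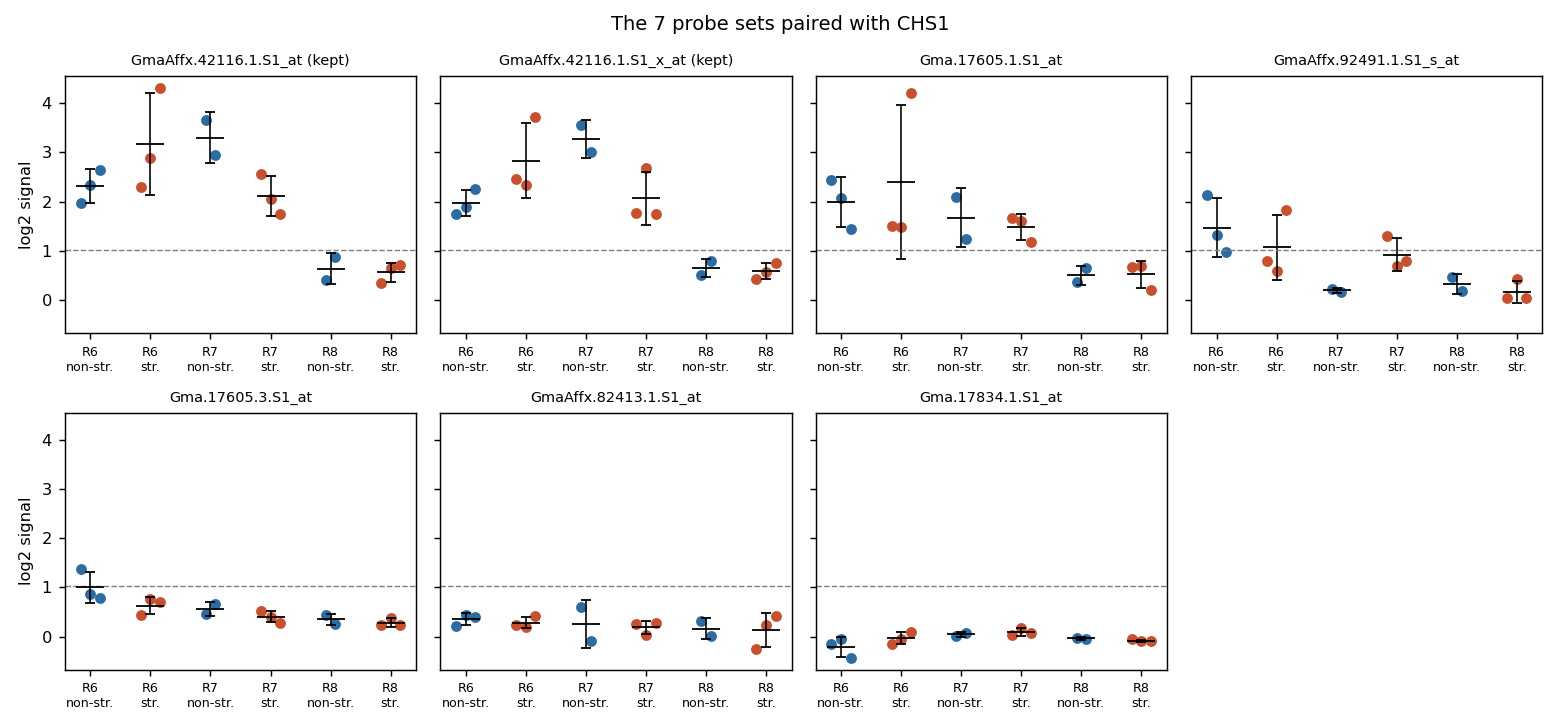
Log2 signal (y axis) of each probe set paired with CHS1, by stage and treatment (x axis; blue, non-stressed; red, stressed; black bars, group mean ± SD, n = 2 or 3; dashed line, background level of 1.02). The probe sets that passed the filter are marked as kept, and replicate 3 of stressed R6 seeds is the highest array in the first, at 4.32, and in the one shown next to the kept pair, at 4.20.

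The first comparison asked how stress changed the branch in R6 seeds. All genes from F3H onwards were lower under stress, most of all DFR1 and LAR1, while CHS1 at the entry was not. By limma none of the 6 genes rose, 0 also at an unadjusted p of 0.05, and 5 fell, where 7.54% of all probe sets rose and 7.34% fell, and the median change was -1.58 over the 6 genes and 0.03 over all probe sets. DFR1 fell by 2.91 on the log2 scale (SE 0.13, adjusted p 1.11e-07), which is 7.53-fold. LAR1 fell by 2.81 (SE 0.15, adjusted p 3.6e-07), to the background, so its fold is at least 4.11. F3H fell by 1.69 (SE 0.18, adjusted p 4.44e-05, 3.22-fold), and its second probe set by 1.95. ANS2 fell by 1.46 (SE 0.33, adjusted p 0.00419, 2.76-fold). UGT78K1 fell by 1.06 (SE 0.15, adjusted p 0.000271, 2.08-fold), close to the 2-fold limit. Without stressed replicate 1 it fell by 0.91 and was not called. CHS1 had a difference of 0.86 (SE 0.42, adjusted p 0.113), and the groups overlapped. The difference was 0.28 (adjusted p 0.325) without stressed replicate 3 and 1.29, which was called, without stressed replicate 1, so it depended on single arrays. The second kept CHS1 probe set, not part of the counts above, was higher under stress by 0.86 (limma, unadjusted p 0.0194, adjusted p 0.0404). That lay under the 2-fold limit and was not called.

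Seed coat transcripts moved at the same stage. SCB1, a BURP-domain protein of the seed coat, gave 6.02, 5.73 and 5.40 without stress and 2.35, 2.22 and 0.96 under stress, and it fell by 3.87 on the log2 scale. HPS, a hydrophobic protein of the seed surface, fell by 3.64. Ep, the seed coat peroxidase, rose by 2.17, so 2 of these 3 markers fell and 1 rose. SCB1 passed the filter through non-stressed and Ep through stressed R6 seeds alone. Their summed signal was 9.22 to 9.83 in non-stressed and 5.80 to 6.64 in stressed R6 seeds, 3.82 to 3.84 and 2.96 to 3.44 at R7, and 2.38 to 2.52 and 2.38 to 2.72 at R8. In R6 seeds this sum of the 3 markers mostly followed HPS, with HPS means of 9.36 and 5.72 beside summed means of 9.48 and 6.26. The sum thus does not show the rise of Ep. SCB1 was within the background in all R7 and R8 groups. The sum of 8 embryo reserve transcripts was 15.02 to 15.06 in non-stressed and 14.99 to 15.08 in stressed R6 seeds, and 0 of the 7 that passed the filter were called there by limma, with 0 also at an unadjusted p of 0.05. GY1, the highest of these reserve transcripts, had R6 means of 13.15 and 13.18, where the highest value in the data was 13.28. The sum thus had little room to rise, and changes in such high signals may not show. CG-1, with lower R6 means of 6.59 and 6.12, adds little to the sum. The part of the seed coat transcripts in the changes of the branch genes was not tested.

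**Figure D3:**
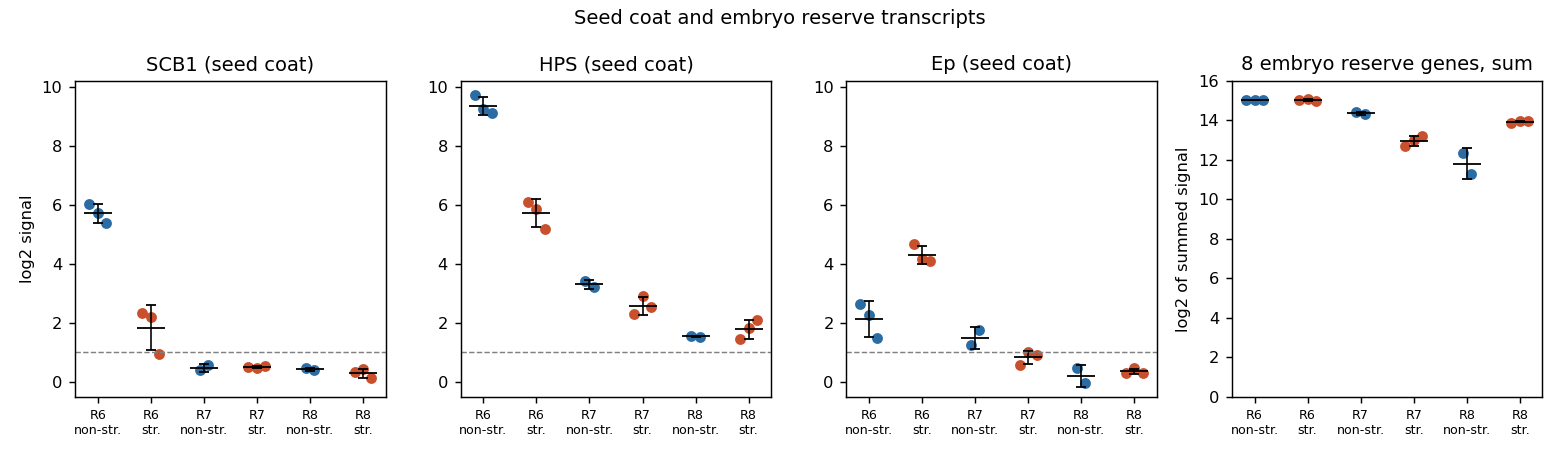
Log2 signal (y axis) of the 3 seed coat markers and log2 of the summed signal of 8 embryo reserve genes, by stage and treatment (x axis; blue, non-stressed; red, stressed; black bars, group mean ± SD, n = 2 or 3; dashed line, background level of 1.02 for 1 probe set). At R6 SCB1 and HPS are lower and Ep is higher under stress, while the embryo sums lie within 0.09 of each other.

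In R7 seeds the direction was the opposite for F3H and ANS2, which were higher under stress, and CHS1 was lower. Of the 6 genes 2 rose and 1 fell, where 6.62% of probe sets rose and 11.9% fell (1270 and 2293, or 1651 and 1894 with the medians of the arrays centred), with medians of 0.00 and -0.05. F3H rose by 1.90 (SE 0.24, adjusted p 7.43e-05, 3.74-fold). Its second probe set rose by 1.10 (adjusted p 0.00148), at least 1.87-fold from the background. ANS2 rose by 1.86 (SE 0.34, adjusted p 0.000754), at least 2.93-fold from the background. The calls for the first F3H probe set and for ANS2 were made in every alternative fit and with any 1 array left out. CHS1 fell by 1.18 (SE 0.45, adjusted p 0.0419, 2.27-fold). That call was lost without non-stressed replicate 1 (a change of -0.82) and in several other settings given in the closing section. On the second kept CHS1 probe set the fall was 1.21 (adjusted p 0.0152), and it was called with no signal filter too (adjusted p 0.0194). This probe set was not followed through the other settings. DFR1, LAR1 and UGT78K1 had both R7 group means within the background, with differences of 0.02, -0.12 and -0.02, and no fold is given.

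The study judged its R7 samples to mix seeds that had lost chlorophyll to differing degrees, so slightly different stages of maturity, and did not carry them further. Only 2 arrays stood for non-stressed R7 seeds, and they differed from the rest in RNA measures. Their actin probe sets gave 3′ minus 5′ differences of 4.26 and 3.18, where the means of the other groups were 1.75 to 2.60. Their 18S rRNA signals were 6.32 and 8.34, where all others were 9.43 to 11.10. The part of these measures and of the mixed maturity in the R7 results of F3H, ANS2 and CHS1 was not tested. Embryo reserve transcripts moved at R7 as well, since 4 of 7 fell, and their summed signal was 14.31 to 14.41 without stress and 12.72 to 13.19 under stress. At R8 they went the other way, as 6 of the 7 rose under stress, beside 6.01% of all probe sets. Their summed signal was then 11.27 to 12.36 without stress and 13.89 to 13.96 under stress.

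In R8 seeds all 6 genes were within the background in both groups, and no difference was called. The differences were -0.34 (SE 0.15, adjusted p 0.108) for DFR1 and between -0.14 and 0.11 for the others, with a median of -0.06 and one of -0.03 over all probe sets. None rose and none fell by limma, where 6.01% of probe sets rose and 2.50% fell. At an unadjusted p of 0.05 DFR1 alone passed, as did 8358 of the 19194 probe sets. At such signals a difference would not be detectable.

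**Figure D4:**
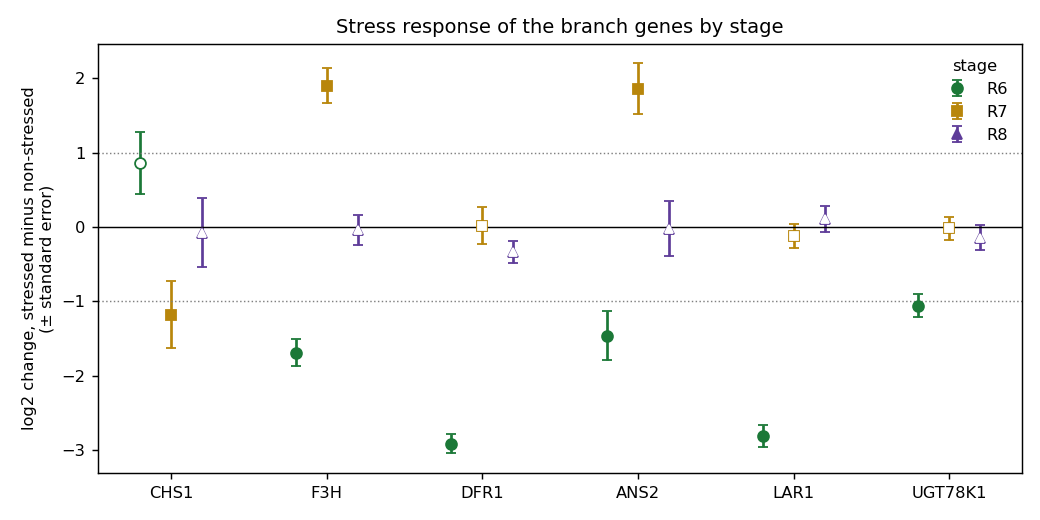
Log2 change under stress (y axis, stressed minus non-stressed, ± standard error of the limma fit) of each gene (x axis) at R6, R7 and R8 (filled, called; open, not called; dotted lines, the 2-fold limit). At R6 all but CHS1 are below zero, and at R7 F3H (1.90) and ANS2 (1.86) are above it.

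Whether the response changed with the stage was tested directly. Between R6 and R8 the response moved upwards, that is, the R6 fall was absent at R8, in 4 of the 6 genes, and downwards in 0, where 11.4% of probe sets moved up and 8.84% down. The medians were 1.55 for the genes and -0.04 for all probe sets. All R8 means were within the background, so these differences hold little more than the R6 changes. The differences were 2.92 for LAR1 (SE 0.23, adjusted p 1.08e-05), 2.58 for DFR1 (SE 0.20, adjusted p 1.03e-05) and 1.65 for F3H (SE 0.28, adjusted p 0.00111). For ANS2 the difference was 1.44 (SE 0.49, adjusted p 0.0395). That call was lost with the replicate block (1.30, adjusted p 0.0579) and without any 1 of 8 arrays, at adjusted p of 0.0614 to 0.117, namely non-stressed R6 replicates 2 and 3, stressed R6 replicates 1 and 2, both non-stressed R8 replicates and stressed R8 replicates 2 and 3. UGT78K1 had 0.92 (SE 0.23, adjusted p 0.00956), under the 2-fold limit, and was called without stressed R6 replicate 3 (1.01) or non-stressed R8 replicate 1 (1.14), and with a further quantile normalization (1.01) or array weights (1.03). CHS1 had -0.93 (SE 0.63, adjusted p 0.258).

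Between R6 and R7 the response moved upwards in 5 genes and downwards in CHS1, where 17.1% of probe sets moved up and 21.8% down, with medians of 2.81 and -0.08. With the medians of the arrays centred, 3892 probe sets moved up and 3633 down in place of 3291 and 4187. F3H had a difference of 3.59 (SE 0.32, adjusted p 1.77e-06) and ANS2 one of 3.32 (SE 0.46, adjusted p 5.76e-05). Both were called lower under stress at R6 and higher at R7. The non-stressed R7 mean of ANS2 was within the background, so its 3.32 is not exact and is not ranked against F3H. DFR1 had 2.93 (SE 0.33, adjusted p 1.41e-05), LAR1 2.69 (SE 0.22, adjusted p 9.36e-07) and UGT78K1 1.04 (SE 0.21, adjusted p 0.000905). As all their R7 means were within the background, these differences hold little more than the falls at R6. The UGT78K1 call was lost without stressed R6 replicate 1 (0.89). CHS1 had -2.04 (SE 0.61, adjusted p 0.0104), a call lost without non-stressed R7 replicate 1 (-1.67, adjusted p 0.0581).

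The branch genes were lower late in maturation in both environments. From R6 to R8 without stress all 6 genes fell, where 32.5% of probe sets rose and 30.3% fell, with medians of -3.67 and 0.15. All R8 means were within the background, so folds are bounds, at least 114-fold for F3H, 20.3-fold for ANS2, 11.7-fold for DFR1, 6.81-fold for UGT78K1, 4.11-fold for LAR1 and 2.45-fold for CHS1. The CHS1 call was lost without non-stressed R8 replicate 1 (-1.45, adjusted p 0.0544). Under stress 5 of the 6 fell from R6 to R8, where 27.3% of probe sets rose and 27.1% fell, with medians of -2.56 and 0.10. F3H was at least 35.3-fold lower, ANS2 7.35-fold, CHS1 4.43-fold, UGT78K1 3.27-fold and DFR1 1.55-fold. LAR1 was within the background at both stages.

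Without stress most of this decline was already seen at R7 in all genes but CHS1. This rests on the 2 non-stressed R7 arrays, which differed from the rest in RNA measures. The part of those measures in the decline was not tested. From R6 to R7, 5 of the 6 genes fell and 0 rose, where 26.7% of probe sets rose and 23.2% fell, with medians of -3.62 and 0.15. F3H was 57.1-fold lower, with a change of -5.83, and ANS2 at least 20.3-fold lower. CHS1 had a difference of 0.99 (adjusted p 0.0596), which was 1.36 and called without non-stressed R7 replicate 2 and 0.63 without replicate 1. Its second kept probe set rose by 1.31 (adjusted p 0.0055). Under stress 4 of the 6 fell from R6 to R7 and 0 rose, where 15.6% of probe sets rose and 20.0% fell, with medians of -1.19 and 0.02. F3H fell by 2.24 on the log2 scale (4.73-fold), UGT78K1 by 2.32 (at least 3.27-fold) and ANS2 by 1.32 (2.50-fold). DFR1 had -0.96 (adjusted p 0.00156), just under the 2-fold limit, and was called without stressed R6 replicate 2 (-1.01) or stressed R7 replicate 2 (-1.18).

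CHS1 fell by 1.05 from stressed R6 to stressed R7 seeds (adjusted p 0.0327, 2.07-fold). This call and that of ANS2 rested on stressed R6 replicate 3, without which the changes were -0.47 and -0.88 and neither was called. The CHS1 call was also lost without stressed R7 replicate 2 (-1.01, adjusted p 0.0761) or 3 (-0.87). Replicate 3 had the highest CHS1, F3H and ANS2 signals and the lowest SCB1 signal of the stressed R6 arrays, and its mean correlation with the others of its group was 0.958, the lowest of them.

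The other genes of the flavonoid pathway did not move as one with the branch. Of 30 that passed the filter, 6 rose and 4 fell under stress at R6, beside 7.54% and 7.34% of all probe sets. Among 6 genes of the phenylpropanoid entry, 4CL1, a 4-coumarate:CoA ligase, fell by 1.87 on the log2 scale. Of 7 genes of the chalcone and flavanone steps, CHR1, a chalcone reductase on the way to isoflavonoids, rose by 2.68. In the same list CHR5, another chalcone reductase, fell by 1.58, and CHI2-A, a chalcone isomerase, fell by 1.96. 4CL1 and CHI2-A passed the filter through non-stressed R6 seeds alone (means of 3.15 and 4.38), so their falls are partly fixed by it.

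The 16 isoflavonoid and pterocarpan genes had 5 that rose and 1 that fell at R6, with a median of 0.58. CYP82A2, a cytochrome P450 gene, rose by 5.26 (38.2-fold), the largest rise in the list. G4DT, a prenyltransferase of glyceollin synthesis, rose from the background by at least 4.11-fold, and CYP93A1, a dihydroxypterocarpan hydroxylase of the same route, by 1.89 on the log2 scale. IFR rose from the background by at least 3.46-fold (adjusted p 0.0454), and MYB176, a MYB factor, rose by 1.25 (2.38-fold). IFR1, named after isoflavone reductase, fell by 4.17 (18.0-fold), and it too passed the filter through non-stressed R6 seeds alone. The isoflavonoid list thus had a positive median at the stage where 5 of the 6 branch genes fell, and this difference between lists was not tested. Its shares of rising and falling genes can be read against the 7.54% and 7.34% of all probe sets.

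At R7 none of the 30 rose by limma, where 1 was higher at an unadjusted p of 0.05, and 4 fell, with changes of -1.30 for 4CL, -1.48 for MYB92, -2.03 for CYP93A1 and -1.11 for IF7GT, an isoflavone 7-O-glucosyltransferase. These counts stand beside the 6.62% of all probe sets that rose and the 11.9% that fell at R7. F3H and ANS2 were thus the only rising genes among all those of the pathway lists that were tested at R7. At R8, 3 rose and 3 fell, beside 6.01% and 2.50% of all probe sets. MYB92, a MYB factor and the 1 of 4 genes on the array from the list of other anthocyanin and proanthocyanidin genes that passed the filter, rose by 1.62 under stress at this stage, where it had fallen at R7. CHR5 and CYP82A2 rose from the background, by at least 1.81-fold and 1.86-fold, while the changes of those that fell were -1.17 for PAL2.1, a phenylalanine ammonia-lyase, -1.50 for CYP93A1 and -2.24 for CYP93A3, a further cytochrome P450.

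**Figure D5:**
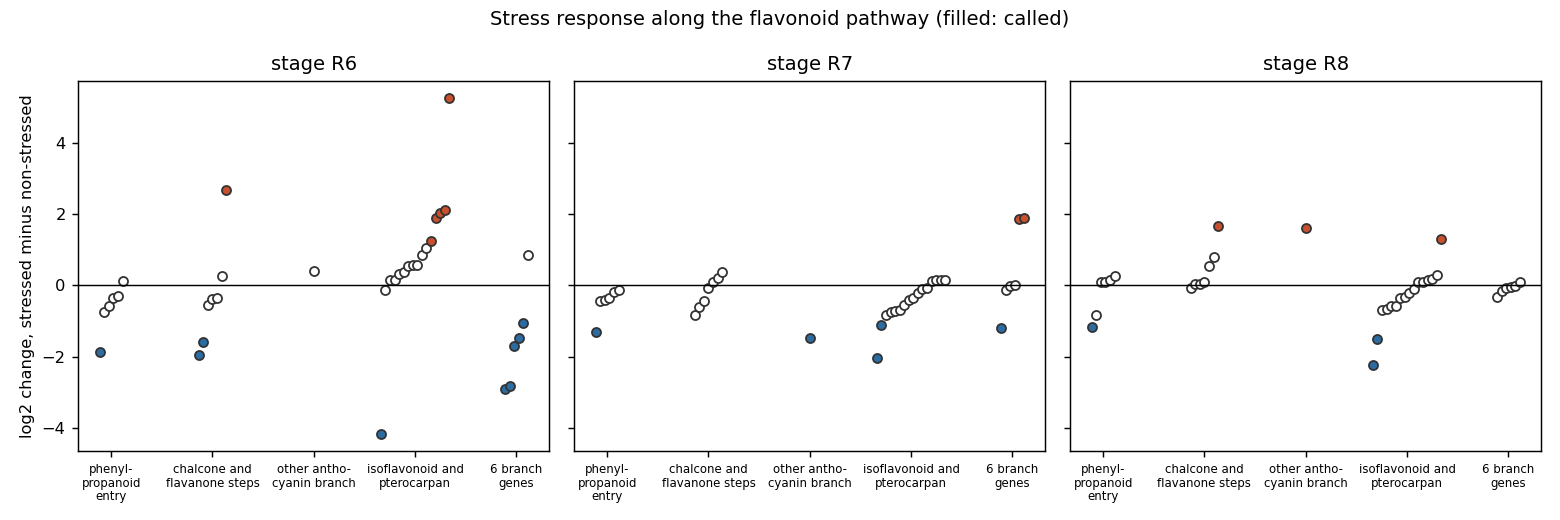
Log2 change under stress (y axis) at R6, R7 and R8 for each flavonoid gene that passed the filter, by step of the pathway (x axis; 1 point per gene; red, rose; blue, fell; open, not called). The 6 branch genes are on the right of each panel, with 5 called lower at R6 and 2 called higher at R7.

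Across the 16 arrays the signals of the branch genes were compared by Pearson's r, which here describes shared stage and treatment and gives no test. F3H and ANS2 were most alike, with r = 0.983, and DFR1 and LAR1 had 0.927. LAR1 was above the background in non-stressed R6 seeds alone, so its r values mostly set those 3 arrays against all others. The R7 and R8 means of DFR1 were also within the background. CHS1 had 0.129 to 0.599 with the other 5. Among 691 other named genes, those most like F3H were HSF-01 (0.988), PPCK2 (0.986) and AOC3 (0.985), and those most like ANS2 were EF1BGAMMA4 (0.983), SOYAP2 (0.970) and HSF-01 (0.967). For DFR1 they were LOX9 (0.983), GS1-GAMMA (0.979) and MYB172 (0.978). LAR1 was most like EXP4 (0.978), NDR1b (0.961) and SBPRP (0.957), and UGT78K1 like SWEET13 (0.990), ADR11 (0.989) and BES1-12 (0.988). CHS1 was most like C4H (0.925), the cinnamate 4-hydroxylase upstream of it in the pathway, then SALI5-4A (0.891) and CHR1 (0.886).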

How the data were processed

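The deposited values are log2 signals, 1 for each probe set on each array. The authors made them by RMA (submitters' processing notes) on ArrayAnalysis.org (study's methods), with background correction and normalization, and its version was not given in the sources used here. They were used as deposited. RMA removes background, so folds from low signals depend on it. No depth applies to arrays, and the number of arrays limits the precision. Genes were matched to the array annotation by symbol and then by synonym. Where a gene had several probe sets, the one with the highest mean signal was used.

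Soybean probe sets with a group mean above 3 in at least 1 of the 6 groups were tested (19194). The background level is the highest of the arrays' 95th percentiles of the 23394 probe sets for other organisms. Linear models with 1 mean per group were fitted with limma 3.58.1 under R 4.3.3. Comparisons of R6 and R8 used the arrays of these stages, and those with R7 used all 16 arrays. P-values are two-sided and were adjusted by Benjamini-Hochberg over all probe sets tested. Calls needed an adjusted p no higher than 0.05 together with a log2 change of 1 or more in size. A gene below the 2-fold limit was not called, whatever its p.

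All 6 genes are named, with, for each of the 6, the 3 most similar named genes. Up to 4 called genes are named per pathway list and comparison. For the isoflavonoid list at R6 all called genes are named. The members and lists were chosen with earlier results of these data known. The labels give no batch. Alternatives were other signal filters, normalizations, variance models, array weights, sets of arrays, the mean of a gene's probe sets, a replicate block, and leaving out each array. The fit was tested on simulated data. No sequence was used.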

Additional observations from a re-analysis of the deposited data

Results flagged for a closer look

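The groups of 2 or 3 arrays are too small for a search for single outlying samples. The results below stand out because the change under stress differed between 2 stages by a test of the difference itself in limma. For R8 minus R6 the differences were 1.65 for F3H, 2.58 for DFR1, 1.44 for ANS2 and 2.92 for LAR1. All R8 means were within the background, so these values hold little more than the falls at R6, and the call of ANS2 was lost with the replicate block and without any 1 of 8 arrays. For R7 minus R6 they were -2.04 for CHS1, 3.59 for F3H, 2.93 for DFR1, 3.32 for ANS2, 2.69 for LAR1 and 1.04 for UGT78K1. The R7 means of DFR1, LAR1 and UGT78K1 and the non-stressed R7 mean of ANS2 were within the background too. DFR1, LAR1 and UGT78K1 passed the signal filter through non-stressed R6 seeds alone. CHS1 passed it through stressed R6 and non-stressed R7 seeds. The direction of the differences of these genes was therefore partly fixed by the filter. F3H and ANS2 are the genes of this set that were lower under stress in R6 seeds and higher in R7 seeds, with groups that did not overlap at either stage.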

How the results depend on the processing

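No called value changed sign in any of the 26 alternative settings. The sign changed 18 times in differences that were not called, all between -0.42 and 0.17. In all, 1352 of 1395 values for single genes kept their side of the limits. Of 468 counts of the 6 genes, 450 were unchanged or within 1.5 times the main count, so some of these still shifted. Comparisons of R6 and R8 alone did not use the R7 arrays. Leaving out an R7 array could therefore not change them, and these totals include such values. Every count over all probe sets stayed within 1.5 times its main value. The count of genes that fell under stress at R7 went from 1 to 0 with no signal filter, a further quantile normalization, medians centred, array weights and the mean of probe sets, since CHS1 was then not called (adjusted p 0.0546 to 0.118 in the first 4). With the mean of probe sets CHS1 did not pass the filter, and the count of genes whose response moved down from R6 to R7 was 0. With the replicate number as a block the count of genes that rose from R6 to R7 without stress went from 0 to 1 (CHS1, 1.15). The correlations of same-numbered arrays were -0.217 to 0.365, so a pairing by number could not be settled. Leaving out 1 array gave 0 to 1 genes that rose and 4 to 5 that fell at R6 under stress, and 0 to 1 that fell at R7. It gave 0 to 1 whose response moved down from R6 to R7 and 0 to 1 that rose from R6 to R7 without stress. From R6 to R7 under stress it gave 2 to 5 that fell. Further counts shifted with single calls given above, such as those of ANS2 and UGT78K1 for R8 minus R6. The CHS1 call under stress at R7 was lost without any 1 of 7 arrays (non-stressed R6 replicate 2, non-stressed R7 replicate 1, stressed R7 replicates 2 and 3, and each stressed R8 replicate). Its call from R6 to R7 under stress was also lost with 4 other settings, and with array weights ANS2 was not called there either (-0.99), while DFR1 was (-1.16). Centring medians moved the median of all probe sets by 0.11 for stress at R7 and by 0.13 for the response at R7 minus R6. At R7 it turned 1270 rising and 2293 falling probe sets (35.6% rising) into 1651 and 1894 (46.6%), and for the response at R7 minus R6 it turned 3291 up and 4187 down into 3892 and 3633. Signals near the background limit what can be seen at R7 and R8.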
